A study of Sus scrofa with 2 samples.

Results

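Invariant natural killer T (iNKT) cells and conventional T cells of the pig thymus were compared at and after the point where a thymocyte is selected on its antigen receptor. The comparison took 11785 of the 21209 cell barcodes deposited, 11044 iNKT cells and 741 post-selection cells. The thymi came from 2 pigs, untreated, of mixed breed and aged 22 weeks, and single-cell RNA libraries were made with the 10x Genomics 3′ kit. The cells of both pigs were combined, which gave 1 library of iNKT thymocytes, positively selected with magnetic beads, and 1 library of total thymocytes from the same thymi, both sorted for live cells. All barcodes of the iNKT library with at least 500 genes, at most 10% mitochondrial transcripts and at most 1 transcript of 4 cycling genes (TOP2A, UBE2C, PCLAF and TK1) were taken as iNKT cells. Post-selection cells were the total thymocytes that passed these filters and had at least 2 transcripts of TOX2 and CCR9 together, none of PTCRA or DNTT, none of KLF2, S1PR1 or CCR7 and at most 1 of SOX13 and RHEX together. They made up 11% of the 6747 total thymocytes that passed the filters.

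Double-positive thymocytes carry both co-receptors, CD4 and CD8, and are kept when their T cell receptor engages a ligand. Conventional thymocytes are selected by peptides on MHC molecules of the thymic stroma, and they then choose the CD4 or the CD8 lineage and mature before they leave. iNKT cells are selected by lipids on CD1d of other double-positive thymocytes, with a strong signal that, in mice, induces EGR2 and then ZBTB16, the gene of the transcription factor PLZF, and they take on effector functions inside the thymus.

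Levels below are transcripts counted by unique molecular identifiers (UMIs), summed over the cells of a group and given as counts per 1000000 (CPM). With 1 library per group there was no replicate check and no test. Every bracketed range is an exact 95% interval that covers counting error only, and a gene was called when its ratio, after 0.5 UMI was added to each sum, reached 2-fold with a mean of at least 10 CPM. iNKT cells had a median of 4173 UMIs and 1500 genes, and post-selection cells a median of 1808 UMIs and 921 genes. Bead selection, library and depth per cell differ together with cell kind and cannot be told apart from it.

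ZBTB16, the marker given for iNKT cells, stood at 223 CPM in iNKT cells and 0.62 CPM in post-selection cells, where it was a single UMI. With every cell thinned to 2000 UMIs, 32.2% (31.3 to 33.1) of 10736 iNKT cells and 0 of 322 post-selection cells had a ZBTB16 UMI, and 0 of 322 allows a share of up to 0.932%. Of 832 double-positive cells, which should lack the gene and had a median of 2046 UMIs before thinning, 0 had one. Without thinning the shares were 54.8% of iNKT cells and 0.135% of post-selection cells. TOX2 and CCR9 set the choice of post-selection cells and are given as a description. TOX2 stood at 32.9 CPM in iNKT cells and 330.4 CPM in post-selection cells, and CCR9 at 51.4 CPM in iNKT cells and 1159 CPM in post-selection cells. Of the iNKT cells, 959 also had at least 2 UMIs of TOX2 and CCR9, and 42 met every condition asked of post-selection cells. The conditions on maturity were not asked of iNKT cells, and 10630 of the 11044 had a UMI of KLF2, S1PR1 or CCR7.

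The name post-selection held in part. CD5 and ARPP21, which the rule did not use, stood between double-positive cells (1603 other total thymocytes with at least 2 RAG1 UMIs) and mature cells (756 total thymocytes with a CD3 UMI, at least 2 UMIs of KLF2, S1PR1 and CCR7, and the same limits on PTCRA, DNTT, SOX13 and RHEX). The double-positive cells were chosen by RAG1, with no condition on CD4, CD8, PTCRA or DNTT, so earlier thymocytes with RAG1 can be among them. CD5 was at 48 CPM in double-positive, 200.2 CPM in post-selection and 291 CPM in mature cells. ARPP21, a gene of double-positive thymocytes, was at 1419 CPM in double-positive, 432 CPM in post-selection and 82.9 CPM in mature cells. Of the 741 post-selection cells, 464 (62.6%) had a UMI of RAG1, RAG2, CD1E, ARPP21 or FABP6, genes of the double-positive stage, and 277 had none. Just outside the rule, 690 cells with exactly 1 UMI of TOX2 and CCR9 had RAG1 at 434 CPM and CD8B at 964 CPM. Just inside it, 340 cells with exactly 2 had RAG1 at 306 CPM and CD8B at 728 CPM. The libraries shared 41 barcodes, of which 37 were among the iNKT cells and 1 among the post-selection cells.

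Of 7198 genes tested, 482 (6.7%) were higher in iNKT cells by at least 2-fold and 991 (13.8%) at least 2-fold lower. The median log2 ratio over all genes was −0.30. TMM factors moved it to 0.11 and turned the split to 852 higher and 464 lower, so directions near the median depend on scaling. The lists below were read against these shares. Their members were picked for the roles of the genes, with earlier results of these data known.

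**Figure D1:**
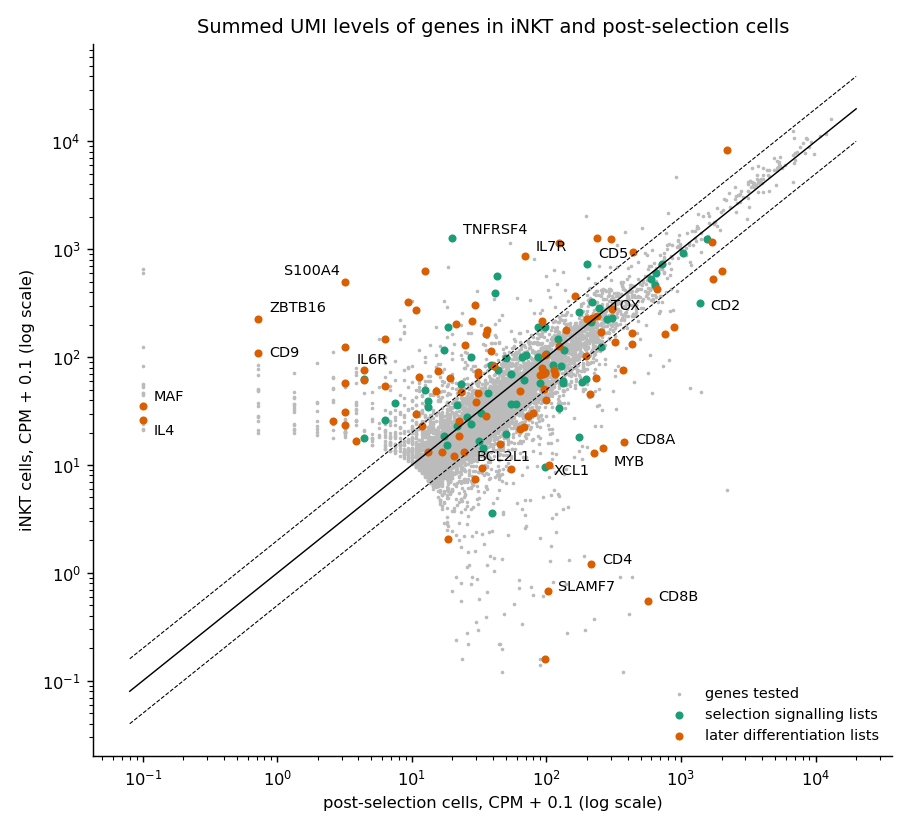
Level of each tested gene in iNKT cells (vertical axis) against post-selection cells (horizontal axis), both as CPM plus 0.1 on log axes; the solid line marks equal levels and the dashed lines 2-fold. TNFRSF4, S100A4 and ZBTB16 lie far above the lines and CD8B, SLAMF7 and CD4 far below them, while TOX lies on the line of equal levels.

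Selection signalling genes were spread to both sides. Of 67 tested members of 4 lists, 17 were higher in iNKT cells by at least 2-fold, 12 were lower and 38 lay within 2-fold, with a median log2 ratio of 0.07. TMM factors gave 21 higher and 7 lower. Across 17 alternative settings, 11 of the 17 higher and 4 of the 12 lower members stayed past 2-fold on the same side in every setting. Of the 17 higher members, 10 stood on the list of genes that respond to signal strength, which held 22 of the 67. Of the 12 lower ones, 5 stood on the list of proximal receptor signalling, which held 27 of the 67. These 5 were 18.5% of that list, near the 13.8% of all genes that were lower.

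Most proximal receptor signalling genes lay close together. Of 27 tested members, 3 were higher, 5 were lower and 19 lay within 2-fold, among them the receptor chain gene CD3E and the kinase gene ZAP70, singled out after their values were seen. CD3E stood at 1234 CPM in iNKT cells and 1561 CPM in post-selection cells, and ZAP70 at 211 CPM in iNKT cells and 214 CPM in post-selection cells. The highest member was CBLB, a ubiquitin ligase that restrains receptor signalling, at 190.4 CPM in iNKT cells and 18.6 CPM in post-selection cells, a ratio of 10.2 (7.17 to 15.2). NFATC2, a transcription factor activated by calcium, and PTPN22, a phosphatase that dampens the kinases, had ratios of 5.0 (2.86 to 9.7) and 4.16 (2.26 to 8.7).

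CD2, an adhesion and costimulatory receptor, was at 318 CPM in iNKT cells and 1374 CPM in post-selection cells, 4.32-fold lower (4.13 to 4.52). CBL, the ubiquitin ligase related to CBLB, and NFATC3, an NFAT factor of double-positive cells, were 3.15-fold lower (2.8 to 3.54) and 3.12-fold lower (2.76 to 3.52). CD2 stayed at least 2-fold lower in all 17 settings. NFATC3 came within 2-fold, at a log2 ratio of −0.52, when post-selection cells with a UMI of a double-positive gene were left out. CBL did so, at −0.91, when such cells were left out on both sides and the conditions on maturity were asked of iNKT cells too.

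Genes that respond to signal strength were more often higher in iNKT cells. Of 22 tested members, 10 were higher in iNKT cells by at least 2-fold and 4 were lower, where 6.7% and 13.8% of all genes were. The median log2 ratio of the list was 0.88. TNFRSF4 (OX40, a costimulatory receptor) stood at 1279.7 CPM in iNKT cells and 19.8 CPM in post-selection cells, a ratio of 64.5 (45.7 to 94.3). TNFRSF18, the related receptor GITR, was at 565 CPM in iNKT cells and 42.8 CPM in post-selection cells, a ratio of 13.2 (10.4 to 17), and CD40LG, which gives help through CD40, at 394 CPM in iNKT cells and 41.5 CPM in post-selection cells, a ratio of 9.48 (7.46 to 12.2). The 67 CD40LG UMIs of post-selection cells came from 28 cells, and 5 cells held 47.8% of them. CD5, a receptor whose level is set by signal strength at selection, was at 736 CPM in iNKT cells and 200.2 CPM in post-selection cells, a ratio of 3.68 (3.29 to 4.11). These 4 genes stayed at least 2-fold higher in all 17 settings, CD5 at log2 ratios of 1.22 to 2.28.

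Early response genes of the receptor lay on both sides. NR4A2, an orphan nuclear receptor induced by the receptor signal, was at 49 CPM in iNKT cells and 12.4 CPM in post-selection cells, a ratio of 3.95 (2.55 to 6.48), and NR4A1 (NUR77), of the same family, at 19.2 CPM in iNKT cells and 50.2 CPM in post-selection cells, 2.61-fold lower (2.06 to 3.28). NR4A1 stayed past 2-fold in 15 of the 17 settings, with TMM factors giving −0.99. EGR2, the factor upstream of PLZF in mice, stood at 23.8 CPM in iNKT cells and 27.3 CPM in post-selection cells, a difference within counting error. Its log2 ratio was 0.59 for the 391 iNKT cells that met the mature, early and gamma-delta conditions, against −0.21 with all iNKT cells, so the sign differed between these sets. For the 42 iNKT cells that met every condition it was −0.88, on few UMIs. EGR1 had a ratio of 1.47 (1.32 to 1.64) and CD69, an early activation marker that holds cells in the thymus, of 1.97 (1.58 to 2.49). ID3, which EGR factors induce, stood at 527 CPM in iNKT cells and 601 CPM in post-selection cells, and both EGR2 and ID3 changed the sign of their log2 ratio under TMM factors, to 0.20 and 0.22. EGR3 had 49 UMIs in iNKT cells and 1 UMI in post-selection cells, a ratio of 1.55 (0.265 to 62.3), and a difference was not detectable at this depth.

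Inhibitors of signalling lay on both sides too. CTLA4, an inhibitory receptor of activated T cells, was at 17.8 CPM in iNKT cells and 4.34 CPM in post-selection cells, a ratio of 4.1 (1.98 to 10.2), but −0.64 on the log2 scale for the 42 iNKT cells that met every condition. TNFAIP3 (A20) and NFKBIA, which shut NF-κB off, were 3.62-fold lower (3.11 to 4.2) and 2.08-fold lower (1.88 to 2.3), and the NF-κB subunit gene REL was 2.18-fold lower (1.89 to 2.51), past 2-fold in 11 of the 17 settings. TNFAIP3 took the other sign, at 0.11, and NFKBIA came near 0, at −0.0047, once post-selection cells with a double-positive gene UMI were left out.

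Few feedback genes of the ERK pathway could be tested. Of 7 members, 2 were higher and 2 lower, where 6.7% and 13.8% of all genes were. DUSP1, a phosphatase of MAP kinases, stood at 115 CPM in iNKT cells and 17.4 CPM in post-selection cells, a ratio of 6.65 (4.6 to 10.0), and RASA3, a GTPase-activating protein for Ras and Rap, at 62.3 CPM in iNKT cells and 4.34 CPM in post-selection cells, a ratio of 14.4 (6.96 to 35.8). SPRED2, an inhibitor of Ras signalling, was 11.1-fold lower (8.19 to 14.9) and DUSP6, a phosphatase of ERK, 2.36-fold lower (1.76 to 3.12). RASA3 had a log2 ratio of 2.02 when the mature, early and gamma-delta conditions were asked of iNKT cells, against 3.75 with all iNKT cells. It came within 2-fold, at 0.95 and on few UMIs, for the 42 iNKT cells that met every condition.

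Among 11 tested genes of survival and death, 2 were higher, 1 was lower and 8 lay within 2-fold. Over all genes, 6.7% were higher and 13.8% lower. BCL2L1, whose product Bcl-xL keeps double-positive cells alive, stood at 9.56 CPM in iNKT cells and 97.3 CPM in post-selection cells, 10.2-fold lower (8.45 to 12.2). Its level along total thymocytes was 165 CPM in double-positive, 97.3 CPM in post-selection and 22.5 CPM in mature cells. TRAF1, a signalling adaptor of TNF receptors, had a ratio of 2.65 (1.73 to 4.28) and GADD45A, a stress-response gene, of 2.21 (1.72 to 2.89).

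**Figure D2:**
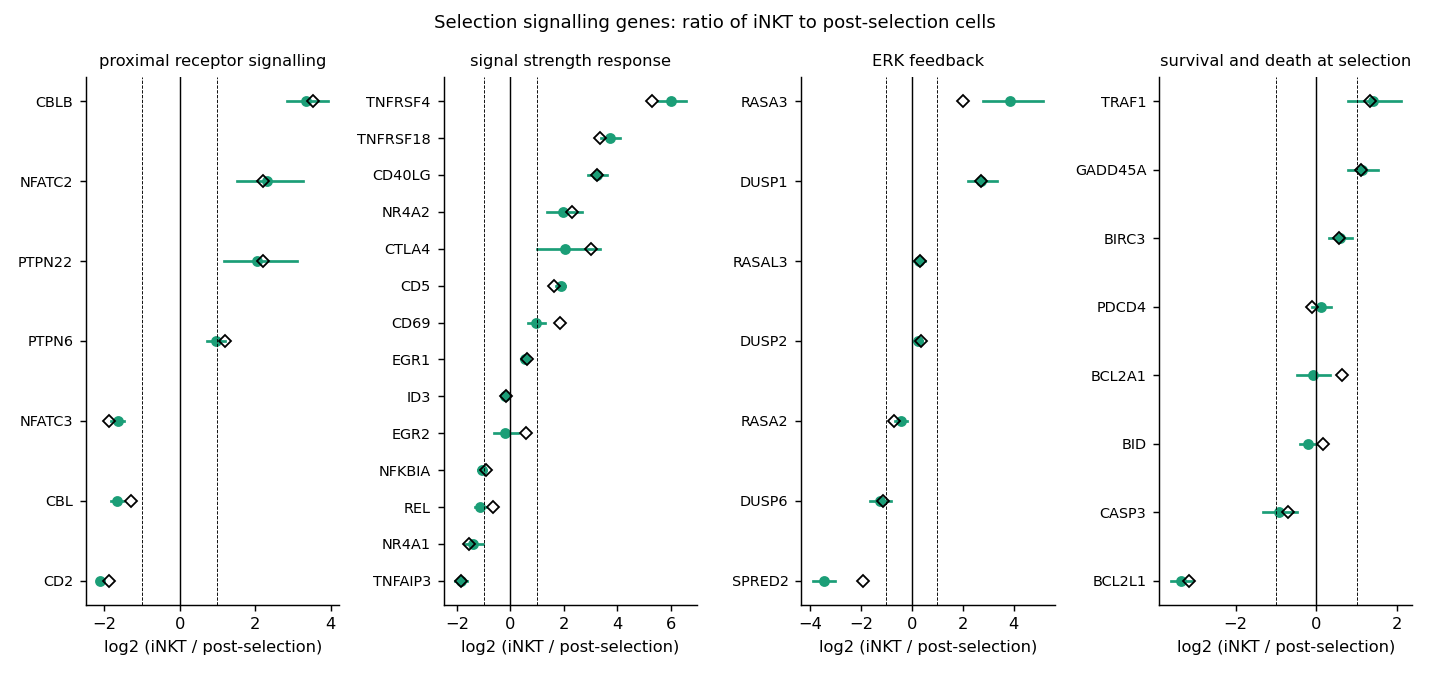
Log2 ratio of iNKT over post-selection cells for named genes of the 4 selection signalling lists; green points are ratios of summed CPM with exact 95% intervals for counting error, and open diamonds the ratios for the 391 iNKT cells that also met the mature, early and gamma-delta conditions. Dashed lines mark 2-fold; TNFRSF4 is highest at 64.5-fold and SPRED2 and BCL2L1 are lowest.

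Beside the stages of total thymocytes, iNKT levels did not sit at a single stage. GATA3 stood at 169 CPM in iNKT cells, against 178 CPM in double-positive, 431 CPM in post-selection and 221 CPM in mature cells. EGR2 was at 23.8 CPM in iNKT cells, against 4.43 CPM in double-positive, 27.3 CPM in post-selection and 11.2 CPM in mature cells. CD2 was at 318 CPM in iNKT cells, against 496 CPM in double-positive, 1374 CPM in post-selection and 1111 CPM in mature cells, so its level in iNKT cells lay below all 3 stages. TNFRSF4 and CD5 in iNKT cells lay above all 3 stages, with ratios to mature cells of 14.9 (13.1 to 17) and 2.53 (2.36 to 2.71). Of 68 selection signalling genes tested in mature against post-selection cells, 10 were at least 2-fold higher and 5 lower, where 3.18% and 3.55% of all genes were. Of 69 tested in iNKT against mature cells, 14 were higher and 9 lower, where 4.03% and 6.41% of all genes were. These comparisons share cells with the first one.

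**Figure D3:**
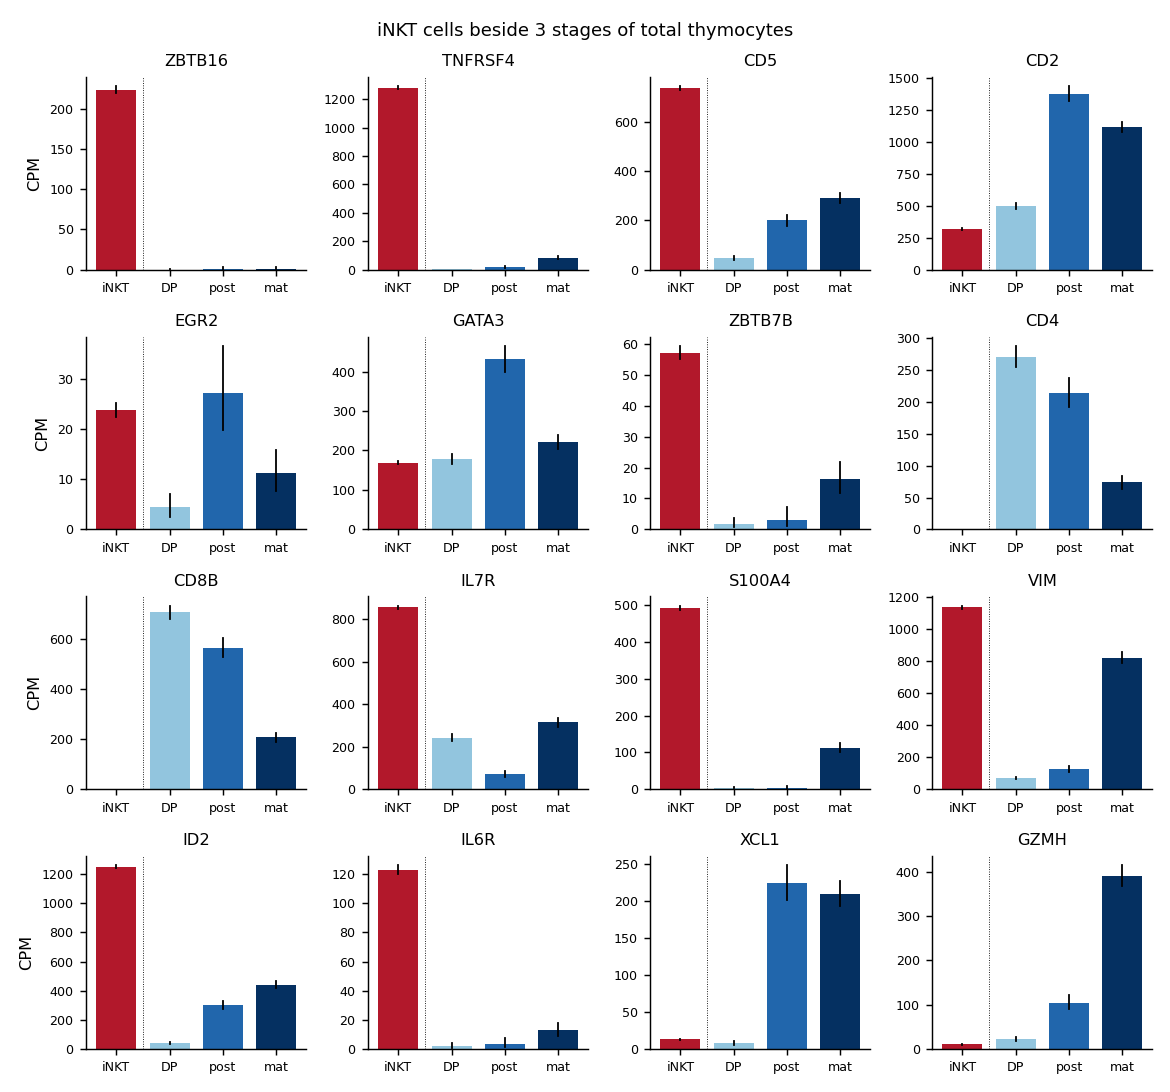
CPM of 16 genes in iNKT cells (red, left of the dotted line) and, in the total thymocyte library, in double-positive (DP), post-selection (post) and mature (mat) cells; bars start at 0 and black lines are exact 95% Poisson intervals. CD5, TNFRSF4, IL7R and ID2 are highest in iNKT cells, GATA3 and CD2 in post-selection cells, and GZMH in mature cells.

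Later differentiation took in 8 lists. Of their 100 tested members, 41 were higher in iNKT cells by at least 2-fold, 28 were lower and 31 lay within 2-fold, where 6.7% and 13.8% of all genes were higher and lower. TMM factors gave 46 higher and 22 lower. In iNKT against mature cells, 26 of 103 tested members were higher and 27 lower, where 4.03% and 6.41% of all genes were. In mature against post-selection cells, 29 of 95 were higher and 12 lower, where 3.18% and 3.55% of all genes were. In iNKT against post-selection cells, 28 of the 41 higher and 12 of the 28 lower members stayed past 2-fold on the same side in all 17 settings. CCL5, XCL1, CXCR3 and TXNIP of the lower members and IL4R of the higher ones changed sign in at least 1 setting.

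More genes of the choice between the CD4 and CD8 lineages were lower than higher in iNKT cells. Of 20 tested members, 11 were lower and 2 higher, where 13.8% and 6.7% of all genes were. The median log2 ratio of the list was −1.34. CD4 stood at 1.11 CPM in iNKT cells and 214 CPM in post-selection cells, 192-fold lower (145 to 259). CD8B, the chain of the conventional CD8 co-receptor, was at 0.45 CPM in iNKT cells and 563 CPM in post-selection cells, 1253-fold lower (829.6 to 1986), and CD8A at 16.1 CPM in iNKT cells and 378 CPM in post-selection cells, 23.5-fold lower (21.1 to 26.2). CD4, CD8B and CD8A stayed at least 2-fold lower in all 17 settings, but by how much depended on the cells taken. Their log2 ratios were −7.57, −10.3 and −4.56 with all iNKT cells. For the 391 iNKT cells that met the mature, early and gamma-delta conditions they were −5.15, −7.46 and −3.16. Over all settings the values nearest to no difference were −3.35, −7.06 and −1.77. With cells thinned to 1000 UMIs, 98.1% (97.8 to 98.3) of 11009 iNKT cells had no co-receptor UMI. Of 662 post-selection cells thinned likewise, 5.59% had CD4 alone, 34.4% CD8A or CD8B alone, 13.9% both and 46.1% neither. Double-positive cells at that depth had no co-receptor UMI in 47.3% of 1447 cells. No co-receptor was asked of these cells, so they cannot show how often a missing UMI stands for a missing co-receptor. A missing UMI was therefore not read as a missing co-receptor.

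Gamma-delta-like cells were 280 total thymocytes with at least 3 UMIs of SOX13 and RHEX and none of PTCRA or DNTT. No condition on co-receptors was set for them. Of these cells, 1.44% had a CD4 UMI and 3.96% a CD8A UMI after thinning to 2000 UMIs. The shares in iNKT cells were 0.196% for CD4 and 3.19% for CD8A, and in post-selection cells 22.4% and 30.7%. Median depths before thinning were 4173 UMIs in iNKT, 1808 UMIs in post-selection and 4380.5 UMIs in gamma-delta-like cells. The CD4 and CD8A shares of iNKT cells therefore lay at or below those of gamma-delta-like cells. Whether the gamma-delta-like cells lack the co-receptors was not tested.

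The named transcription factors of the lineage choice lay on both sides, while the list as a whole had 11 members lower and 2 higher. ZBTB7B, which encodes the CD4 lineage factor ThPOK, stood at 57.1 CPM in iNKT cells and 3.1 CPM in post-selection cells, a ratio of 18.4 (7.89 to 56.8), while mature cells had 16.3 CPM. RUNX3, the CD8 lineage factor, was at 28.3 CPM in iNKT cells and 73.1 CPM in post-selection cells, 2.58-fold lower (2.12 to 3.12). GATA3, needed for CD4 cells, was 2.56-fold lower (2.37 to 2.76), and TMM factors brought both within 2-fold, RUNX3 at −0.97 and GATA3 at −0.95. TOX, needed for the CD4 and iNKT lineages in mice, was level, at 242 CPM in iNKT cells and 237 CPM in post-selection cells. FOXO1, which drives IL7R and KLF2, had a ratio of 4.77 (3.22 to 7.37), and MYB, a factor of early and double-positive thymocytes, was 18.3-fold lower (16.2 to 20.7).

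The innate-like programme was present in part. Of 12 tested members, 6 were higher and 4 lower in iNKT cells, where 6.7% and 13.8% of all genes were. ZBTB16, MAF and RORA were tested only because of their iNKT level and could not have come out lower. SLAMF7 was tested only because of its post-selection level and could not have come out higher. The count was therefore partly set by the filter. ZBTB16 had a ratio of 360.4 (64.7 to 14237) on 1 UMI in post-selection cells. MAF, a regulator of IL4, had 1783 UMIs in iNKT cells and 0 in post-selection cells, at least 18.8-fold higher against a floor of 3 UMIs over the group. ID2, an inhibitor of E proteins found in innate-like and effector cells, stood at 1251 CPM in iNKT cells and 301 CPM in post-selection cells, a ratio of 4.16 (3.81 to 4.56), and RORA, a nuclear receptor of innate-like cells, at 31 CPM in iNKT cells and 3.1 CPM in post-selection cells, a ratio of 10.0 (4.28 to 30.9). ZBTB16, MAF, ID2 and RORA stayed at least 2-fold higher in all 17 settings.

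The SLAM receptor genes SLAMF1 and SLAMF7 and the adaptor gene SH2D1A were lower in iNKT cells. SLAMF1, a homotypic receptor between double-positive cells, stood at 45.3 CPM in iNKT cells and 211 CPM in post-selection cells, 4.65-fold lower (4.14 to 5.22). SH2D1A, which encodes SAP, an adaptor of SLAMF1 that iNKT development needs in mice, was at 163 CPM in iNKT cells and 755 CPM in post-selection cells, 4.64-fold lower (4.37 to 4.93), and SLAMF7 at 0.587 CPM in iNKT cells and 102 CPM in post-selection cells, 173-fold lower (117 to 265). TBX21, the type 1 factor T-bet, had 26 UMIs in 24 iNKT cells and 2 UMIs in post-selection cells, and its difference was not detectable at this depth.

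Maturation and egress genes were more often higher in iNKT cells, with 11 of 20 tested members higher and 3 lower, where 6.7% and 13.8% of all genes were. The rule barred mature cells from the post-selection group only, so this count is tied to the choice of cells. For the 414 iNKT cells without a UMI of KLF2, S1PR1 or CCR7, 8 of 19 tested members were higher and 4 lower. Against mature cells, 3 of 20 were higher in iNKT cells and 3 lower. KLF2, S1PR1 and CCR7 were barred from post-selection cells by the rule and are not on the list. IL7R, the survival cytokine receptor of mature T cells, stood at 857 CPM in iNKT cells and 69.4 CPM in post-selection cells, a ratio of 12.3 (10.3 to 15). Its level was 243 CPM in double-positive, 69.4 CPM in post-selection and 315 CPM in mature cells, so post-selection cells were the lowest of the 3 stages. NFKBIZ, an NF-κB cofactor, and S1PR4, a sphingosine phosphate receptor, had ratios of 8.64 (4.69 to 18) and 7.57 (3.24 to 23.4). TAP1, the peptide transporter of MHC class I, had a ratio of 4.59 (3.54 to 6.06).

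When 391 iNKT cells that met the same mature, early and gamma-delta conditions were used, the log2 ratios of IL7R and S1PR4 were 2.85 and 1.78, against 3.62 and 2.78 with all iNKT cells. Asking in addition for no double-positive gene UMI on either side left 2.24 for IL7R and 0.63 for S1PR4, within 2-fold for S1PR4. ITGA4, an integrin chain, was 3.32-fold lower (3.06 to 3.58), IFNAR2, a chain of the interferon alpha receptor, 2.6-fold lower (2.15 to 3.11), and TXNIP, an inhibitor of thioredoxin and glucose uptake, 2.34-fold lower (2.13 to 2.55). Of these, IFNAR2 came within 2-fold with TMM factors, at −0.97, and TXNIP at −0.82.

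Of 10 tested chemokine receptor and adhesion genes, 2 were higher in iNKT cells and 3 lower, where 6.7% and 13.8% of all genes were. CXCR4, which keeps double-positive cells in the cortex, stood at 75.5 CPM in iNKT cells and 369 CPM in post-selection cells, 4.9-fold lower (4.48 to 5.34), and at 600.0 CPM in double-positive cells. In cells of 1000 to 3000 UMIs, a window chosen after the data were seen, CXCR4 came within 2-fold at −0.96. CCR4, which guides selected thymocytes into the medulla, was level, at 126 CPM in iNKT cells and 123 CPM in post-selection cells, a ratio of 1.02 (0.884 to 1.18). GPR183, an oxysterol receptor, had a ratio of 4.91 (3.79 to 6.47), and PLXND1, a semaphorin receptor, of 10.3 (4.02 to 37.9). ITGAE, the integrin chain CD103, was 2.92-fold lower (2.36 to 3.58). CXCR3, a receptor of type 1 cells, was at 1.98 CPM in iNKT cells and 18.6 CPM in post-selection cells, 9.41-fold lower (6.04 to 14.3), but its log2 ratio was 0.33 for the iNKT cells that met the mature, early and gamma-delta conditions.

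Among cytokines, IL4 was found in iNKT cells and in no post-selection cell. Its 1323 UMIs came from 1008 iNKT cells, against 0 UMIs in post-selection cells, at least 13.9-fold higher against a floor of 3 UMIs over the group. After thinning to 2000 UMIs, 4.58% (4.19 to 5.0) of iNKT cells had an IL4 UMI, and 0 of 322 post-selection, 0 of 832 double-positive and 0 of 711 mature cells had. IFNG had 0 UMIs on both sides. TNFSF11, the RANK ligand that supports medullary epithelium, stood at 65.6 CPM in iNKT cells and 11.2 CPM in post-selection cells, a ratio of 5.88 (3.72 to 9.94), and TNFSF14 (LIGHT), of the same family, had a ratio of 2.81 (1.75 to 4.83), past 2-fold in 12 of the 17 settings. TNF, at 82.3 CPM in iNKT cells and 40.9 CPM in post-selection cells, lay on the 2-fold line.

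Of the chemokine genes, XCL1 and CCL5 were lower and CCL4 was not, and few post-selection cells held their UMIs. XCL1, which attracts dendritic cells, stood at 12.8 CPM in iNKT cells and 224 CPM in post-selection cells, 17.4-fold lower (15.3 to 19.9). Of its 361 UMIs in post-selection cells, 194 were in 1 cell, and 37 cells had any. CCL5 was at 9.07 CPM in iNKT cells and 53.9 CPM in post-selection cells, 5.94-fold lower (4.67 to 7.49), and all 87 of its UMIs in post-selection cells lay in 3 cells. CCL4 was at 46.8 CPM in iNKT cells and 31 CPM in post-selection cells, a ratio of 1.51 (1.14 to 2.04), and its 50 UMIs in post-selection cells lay in 6 cells. The log2 ratio of CCL4 was 0.58 with all iNKT cells and −3.39 for the 42 that met every condition. It was 2.76 for the 391 iNKT cells that met the mature, early and gamma-delta conditions. Leaving out cells with a double-positive gene UMI on both sides as well gave 4.56.

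Cytokine receptors were more often higher in iNKT cells, 7 of 15 tested members against 2 lower, where 6.7% and 13.8% of all genes were. IL6R, SOCS3 and IFNGR2 stood below the mean level needed for testing in post-selection cells. They were tested only because of their iNKT level and could not have come out lower, so the count was partly set by the filter. IL6R, the interleukin 6 receptor, stood at 123 CPM in iNKT cells and 3.1 CPM in post-selection cells, a ratio of 39.7 (17 to 122), and its signalling chain IL6ST at 304 CPM in iNKT cells and 29.1 CPM in post-selection cells, a ratio of 10.4 (7.83 to 14.2). SOCS3, the feedback inhibitor of that pathway, had a ratio of 17.3 (8.39 to 43.1), and IFNGR2, the signalling chain of the interferon gamma receptor, of 14.1 (6.82 to 35). IL12RB1, a chain of the interleukin 12 and 23 receptors, was 3.96-fold lower (2.86 to 5.38) and TGFBR2, a receptor for transforming growth factor beta, 2.93-fold lower (2.27 to 3.73). IL6R and IL6ST were also higher in iNKT cells than in mature cells, with ratios of 9.7 (6.97 to 13.9) and 2.82 (2.52 to 3.18).

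Of 7 tested cytotoxic genes, 2 were higher and 3 lower in iNKT cells, where 6.7% and 13.8% of all genes were. GZMH, a granzyme, stood at 9.88 CPM in iNKT cells and 104 CPM in post-selection cells, 10.5-fold lower (8.8 to 12.6), and at 391 CPM in mature cells. PRF1, the pore-forming protein perforin, was 3.0-fold lower (2.44 to 3.65) and CTSW, a cathepsin of cytotoxic cells, 3.24-fold lower (3.12 to 3.37). CST7, an inhibitor of cathepsins, stood at 215 CPM in iNKT cells and 27.9 CPM in post-selection cells, a ratio of 7.7 (5.75 to 10.6), and SRGN, the granule proteoglycan serglycin, at 1283 CPM in iNKT cells and 237 CPM in post-selection cells, a ratio of 5.41 (4.89 to 5.99). GZMH lay within 2-fold, at a log2 ratio of −0.27, for the iNKT cells that met the mature, early and gamma-delta conditions.

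Of the 12 members of the effector surface and cytoskeleton list with a symbol, 8 were tested. All 8 were higher, with a median log2 ratio of 4.87, and each stayed past 2-fold in all 17 settings. In post-selection cells, CD9, S100A4, ANXA1 and S100A6 stood at 0.62, 3.1, 6.2 and 9.3 CPM, below the mean level needed for testing. These genes were tested only because of their iNKT level and could not have come out lower. S100A10, S100A11, ANXA2 and VIM stood above that level in post-selection cells. The count was therefore partly set by the filter, and the members were picked with earlier results known. S100A4, a calcium-binding protein found in memory T cells, stood at 493 CPM in iNKT cells and 3.1 CPM in post-selection cells, a ratio of 159 (68.1 to 489.6). S100A10 and S100A6, of the same family, had ratios of 51 (33 to 83.6) and 35.1 (21.3 to 62.8), and CD9, a tetraspanin, a ratio of 176 (31.5 to 6935) on 1 UMI in post-selection cells. ANXA1, an annexin, had a ratio of 23.9 (13 to 49.8). VIM, the intermediate filament vimentin, stood at 1135 CPM in iNKT cells and 123 CPM in post-selection cells, a ratio of 9.21 (8.01 to 10.6). VIM also stood at 819 CPM in mature cells, where the ratio of iNKT to mature cells was 1.39 (1.33 to 1.45), while S100A4 stood at 112 CPM in mature cells with a ratio of 4.39 (3.92 to 4.92). For S100A4, 34.6% (33.7 to 35.5) of thinned iNKT cells had a UMI, against 0 of 322 post-selection cells and 0.361% (0.0744 to 1.05) of double-positive cells.

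**Figure D4:**
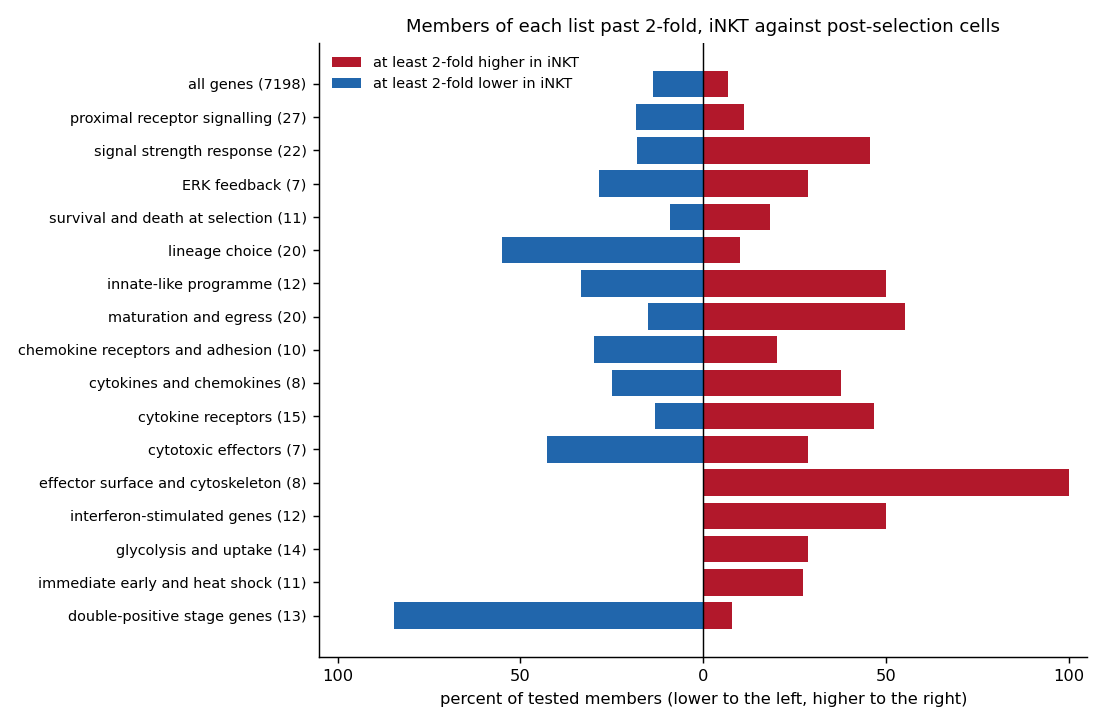
Percent of the tested members of each list that were at least 2-fold higher (red, right) or lower (blue, left) in iNKT than in post-selection cells, with the number tested in brackets and all 7198 genes in the top row. The effector surface list stands wholly to the right, and the double-positive stage list, part of which tells post-selection cells apart, mostly to the left.

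Because post-selection cells were mixed in stage, they were also split by double-positive transcripts, a division chosen after the data were seen. The 277 cells without such a UMI had a median of 2504 UMIs and the 464 cells with one a median of 1499.5, so depth differs with the split, and its part in these values was not tested. ID2 was at 547 CPM in cells without and 103 CPM in cells with such a UMI, a ratio of 5.32 (4.23 to 6.75), which brings the cells without it nearer to the 1251 CPM of iNKT cells. IL7R, CD5 and VIM had ratios of 2.74 (1.82 to 4.21), 1.85 (1.47 to 2.33) and 2.63 (1.94 to 3.6) between the sets, and each stayed below its level in iNKT cells. In the cells without such a UMI, BCL2L1 was 4.68-fold lower (2.99 to 7.63), CD8B 6.28-fold lower (5.11 to 7.79) and CXCR4 3.32-fold lower (2.71 to 4.11). TNFAIP3, NFKBIA and TXNIP stood at 33.9, 123 and 139 CPM in iNKT cells, against 30.6, 122 and 125 CPM in post-selection cells without such a UMI, so the levels lay close together. CD2 was high in both sets, at 1537 CPM in cells without and 1243 CPM in cells with such a UMI, and so was GATA3, at 399 CPM in cells without and 457 CPM in cells with one.

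**Figure D5:**
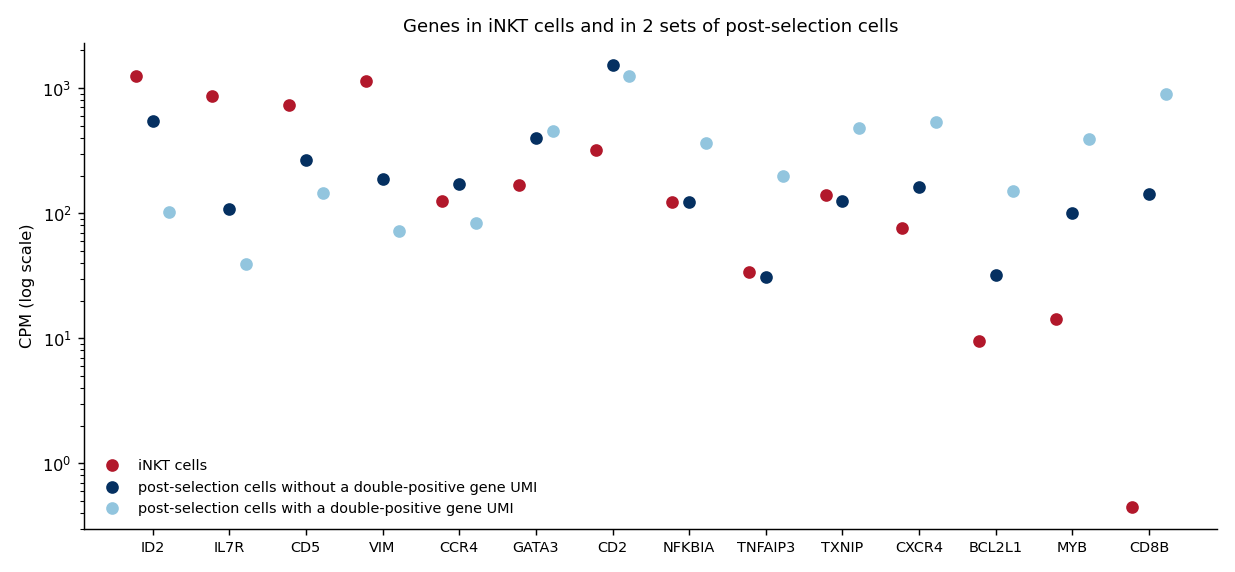
CPM on a log axis of 14 genes in iNKT cells (red) and in post-selection cells without (dark blue) and with (light blue) a UMI of RAG1, RAG2, CD1E, ARPP21 or FABP6. The cells without such a UMI reach the level of iNKT cells for NFKBIA, TNFAIP3 and TXNIP, and stay apart from it for IL7R, VIM, CD2 and CD8B.

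The iNKT cells were also divided, by the transcripts that the rule bars from post-selection cells. The 414 iNKT cells with no UMI of KLF2, S1PR1 or CCR7 had a median of 3372 UMIs. Against post-selection cells, 22 of 69 tested selection signalling genes were higher in them and 10 lower, where 6.92% and 12.7% of all genes were, and 44 of 101 later differentiation genes were higher and 26 lower. TNFRSF4 stood at 776 CPM, CD5 at 607 CPM and ZBTB16 at 172 CPM in these 414 cells, against 19.8, 200.2 and 0.62 CPM in post-selection cells. CCL5 was at 221 CPM in them and 2.78 CPM in the other iNKT cells, and its 326 UMIs lay in 19 cells. XCL1, CCL4 and GZMH were likewise higher in the 414 cells than in the other iNKT cells, at 223, 202 and 108 CPM against 6.58, 42.2 and 6.97 CPM, in 28 to 34 cells for each gene. Few of the 414 cells therefore carried them.

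Over all genes with a symbol and outside the rule, 7 of the 10 highest ratios belonged to genes with no UMI in post-selection cells, the interferon-stimulated gene ISG20 and 6 genes on none of the lists. FAM111A, which encodes a protease, had 6388 UMIs in iNKT cells and was at least 67.2-fold higher, and DDC, aromatic amino acid decarboxylase, had 4260 UMIs and was at least 44.8-fold higher. DMD, which encodes dystrophin, was at least 25-fold higher, NRP1, a co-receptor for semaphorins, at least 24.8-fold, SH3BGRL2 at least 24-fold and MINDY1, a deubiquitinase, at least 19.7-fold. Each bound sets post-selection cells at a floor of 3 UMIs over the group.

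Of the 10 lowest ratios, several belonged to genes of double-positive thymocytes. CD1E, which helps load lipids onto other CD1 molecules, had 1 UMI in iNKT cells and 601 in post-selection cells, 19049-fold lower (3406 to 753647). RAG1 and RAG2, the recombinase, had 10 and 3 UMIs in iNKT cells against 309 and 143 UMIs in post-selection cells. FABP6, a bile acid binding protein, had 16 UMIs in iNKT cells and 658 in post-selection cells. HHIP, an inhibitor of hedgehog signalling, was 829-fold lower (488 to 1531), ARSG, a sulfatase, 806-fold lower (417 to 1786), MYF6, a muscle transcription factor, 2377-fold lower (414 to 95131) and EPCAM, an epithelial adhesion molecule, 2266-fold lower (616 to 18894). EPCAM was at 192 CPM in double-positive cells, and the epithelial markers KRT8 and KRT18 were at 1.86 and 1.24 CPM in post-selection cells. Of 13 tested double-positive stage genes, 11 were lower in iNKT cells and 1, CD38, was higher, at 89.4 CPM in iNKT cells and 12.4 CPM in post-selection cells.

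Summed marker levels of other cell types were lower in iNKT cells for 6 of 7 lists. The summed level of 7 NK cell markers was 2.25 CPM in iNKT cells and 14.9 CPM in post-selection cells. That of 5 erythroid markers was 2.11 CPM in iNKT cells and 14.3 CPM in post-selection cells, that of 12 myeloid and dendritic markers 26.9 CPM in iNKT cells and 57.6 CPM in post-selection cells, and that of 8 B and plasma cell markers 146 CPM in iNKT cells and 195 CPM in post-selection cells. GNLY and NCR1 of the NK markers were at 0 on both sides, and FOXP3, which defines regulatory T cells, had 0 UMIs in post-selection cells and 0.0587 CPM in iNKT cells. The summed level of 7 regulatory T cell markers was 660 CPM in iNKT cells and 625 CPM in post-selection cells, with TNFRSF18 the highest of them in iNKT cells. IKZF2, also listed for regulatory T cells, was at 70.9 CPM in iNKT cells and 565 CPM in post-selection cells, 7.98-fold lower (7.41 to 8.58). The summed level of 6 gamma-delta T cell markers was 585 CPM in iNKT cells and 705 CPM in post-selection cells, with ID3 the highest of them on both sides. That of 8 epithelial and stromal markers was 0.274 CPM in iNKT cells and 91.7 CPM in post-selection cells, most of it from EPCAM. JCHAIN, a plasma cell gene, was at 21.9 CPM in iNKT cells and 8.06 CPM in post-selection cells, and 5 iNKT cells held 88.0% of its UMIs. The part of these cells in the levels above was not tested.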

How the data were processed

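The deposited matrices hold whole-number UMI counts per gene and barcode, made by the authors with Cell Ranger 3.1 (3.1.0 per the file headers) and followed by Seurat 3.1 per the submitters' processing notes; the genome build is not given in the sources used here. Of 21301 genes, 14846 took a symbol from the files and 687 from a table of Ensembl names, and 345 of the 383 list genes were matched. The members and lists were chosen with earlier results of these data known.

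Counts were summed over the cells of a group and divided by their total (51134442 UMIs in iNKT cells, 1613270 UMIs in post-selection cells). Ratios carry exact conditional binomial 95% intervals, levels exact Poisson intervals and shares of cells Clopper-Pearson intervals, all for counting error only. Log2 ratios were taken after adding 0.5 UMI to each count. Fold changes against 0 used a floor of 3 UMIs over the group. Shares were taken after thinning each cell to 2000 UMIs, or 1000 for the co-receptors, which left out 308 iNKT and 419 post-selection cells at 2000. Doublets were not called, and leaving out the 8% of cells with most UMIs was tried instead. The ratio and its interval were tested on simulated data. Of 19 alternatives, 3 were chosen after seeing the data. The genes named in full are the 4 highest and 4 lowest of each selection and later differentiation list, the 2 highest and 2 lowest of each other list, the 10 highest and 10 lowest of all genes, and a short set of standing genes such as CD5, EGR2 and IL7R. CD3E, ZAP70, ARPP21, FOXP3, GNLY, NCR1, KRT8, KRT18, IL4R, ISG15 and KLRK1 were added after their values were seen. Python 3.11.15, numpy 2.4.6, scipy 1.17.1, pandas 2.3.3 and matplotlib 3.10.9 were used. Protein and promoter sequences are not used here, and 3 members of the lists, counted in their totals, are not reported here.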

Additional observations from a re-analysis of the deposited data

How the results depend on the processing

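Across the settings run on single genes, 1708 of the log2 ratios of named genes stayed within their counting interval, 715 moved by more, and 25, all of genes past 2-fold, took the other sign. TMM factors gave 852 genes higher and 464 lower, with 7 of the selection signalling genes lower in place of 12, because they shift all ratios. Asking all 4 conditions of iNKT cells left 42 cells and gave 835 genes higher. Many log2 ratios for these 42 cells rested on few UMIs, and those of CTLA4, CCL4 and JCHAIN on the 0.5 UMI added. The log2 ratios of genes past 2-fold that took the other sign were, with the mature, early and gamma-delta conditions on iNKT cells (391 cells), 0.33 for CXCR3, 2.10 for CCL5, −1.10 for JCHAIN, 0.84 for HLA-DRA and 0.64 for SLA-DQB1. With all 4 conditions they were −1.48 for JCHAIN, 0.66 for SLA-DQB1 and −0.64 for CTLA4. JCHAIN was at −1.79 with only iNKT cells that had a ZBTB16 UMI and at −1.80 without the 8% of cells with most UMIs, and CCL5 was at 4.09 with TOX2 and CCR9 at 3 or more. Without post-selection cells that had a double-positive gene UMI, they were 0.11 for TNFAIP3 and 0.14 for TXNIP. With such cells left out on both sides and the conditions on iNKT cells, they were 0.063 for TNFAIP3, 0.15 for NFKBIA, 0.098 for TXNIP, 0.12 for CXCR3, 0.42 for XCL1, 1.69 for CCL5, −0.95 for JCHAIN and 0.0025 for HLA-DRA. In cells of 1000 to 3000 UMIs they were 5.94 for CCL5, −0.78 for JCHAIN, 4.59 for HLA-DRA and 2.50 for SLA-DQB1. Genes within 2-fold could change sign too, among them EGR2 and HSPA8 under the first of these settings (0.59 and 0.17), CCL4 and PTPN6 with all 4 conditions (−3.39 and −0.64), and EGR2, ID3 and IFI44L under TMM factors (0.20, 0.22 and 0.19). Among named members, the setting nearest to no difference also brought DUSP6 (−0.33), RUNX3 (−0.095), IFNAR2 (−0.091), ITGAE (−0.50), CTSW (−0.23), IL12RB1 (−0.84), TGFBR2 (−0.76), GADD45A (0.55), FOXO1 (0.90), RASA3 (0.95) and SOCS3 (0.95) within 2-fold with the same sign. The settings that leave out cells by double-positive genes or take cells of 1000 to 3000 UMIs were chosen after seeing the data. The cause of these changes was not tested. Of the 482 higher and 991 lower genes, 398 and 724 kept their call under the mature, early and gamma-delta conditions. No paired analysis was possible because each group is 1 library and the labels give no replicate numbers. The 741 post-selection cells hold 1613270 UMIs, so a gene at 0 there may stand anywhere under the floor of 3 UMIs, and differences between pigs cannot be seen in pooled libraries.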

Other observations

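Interferon-stimulated genes were higher in iNKT cells in 6 of 12 tested members and lower in none, beside the 6.7% of all genes that were higher. IFI6 stood at 1134 CPM in iNKT cells and 53.3 CPM in post-selection cells, a ratio of 21.3 (17.2 to 26.6), although 57.0% of its post-selection UMIs lay in 5 cells. ISG20, an exonuclease, had 2876 UMIs in iNKT cells and 0 in post-selection cells, at least 30.2-fold higher. ISG15, a ubiquitin-like modifier, stood at 479 CPM in iNKT cells and 120.3 CPM in post-selection cells, and within post-selection cells at 232 CPM without and 30.2 CPM with a UMI of a double-positive gene. IFI44L and OAS2 lay within 2-fold, and IFI44L changed the sign of its log2 ratio under TMM factors, to 0.19.

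Of 11 tested immediate early and heat shock genes, 3 were higher in iNKT cells and none lower, where 6.7% and 13.8% of all genes were. FOS stood at 559 CPM in iNKT cells and 99.8 CPM in post-selection cells, a ratio of 5.61 (4.8 to 6.59), and FOSB had 3947 UMIs in iNKT cells and 1 UMI in post-selection cells, a ratio of 125 (22.3 to 4919.8). The heat shock genes HSPA8 and HSP90AA1 lay within 2-fold, HSPA8 at 892 CPM in iNKT cells and 1025 CPM in post-selection cells. Of 14 tested genes of glycolysis and uptake, 4 were higher and none lower, where 6.7% and 13.8% of all genes were. SLC16A3, a lactate exporter, stood at 80.9 CPM in iNKT cells and 9.3 CPM in post-selection cells, a ratio of 8.7 (5.27 to 15.6), and PFKL, a phosphofructokinase, had a ratio of 2.92 (1.88 to 4.79). PGK1 and PGAM1, which act further down the pathway, lay within 2-fold. Handling with magnetic beads was particular to the iNKT library, and its part in these levels cannot be told apart from cell kind.

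The 414 iNKT cells without a UMI of KLF2, S1PR1 or CCR7 were also set beside the other 10630 iNKT cells. CD69 stood at 175 CPM in these cells and 95.3 CPM in the other iNKT cells, and TNFSF11 at 128 CPM in these cells and 63.8 CPM in the others. IL7R stood at 561 CPM in these cells and 866 CPM in the others, and S100A4 at 194 CPM in these cells and 502 CPM in the others. KLRK1, the activating receptor NKG2D, was at 53.6 CPM in these cells, all from 19 of them, and 0.926 CPM in the others, and CXCR3 at 33.9 CPM in these cells and 1.03 CPM in the others.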
